A study of Homo sapiens with 2 samples.

Results

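The 9 genes described here encode subunits of Polycomb repressive complex 1 (PRC1), and their expression was followed in HuES53 and HuES64, diploid lines of human embryonic stem cells. They were chosen by name, as the rows of the deposited expression table with the symbols CBX2, CBX6, CBX7, CBX8, RING1, RNF2, BMI1, PHC1 and PCGF6. All 9 were found, each as 1 row, among 25436 gene symbols. Per the labels, both lines go back to in vitro fertilized embryos, were undifferentiated, were below passage 20 and were the controls of a study on haploid human embryonic stem cells. Each line gave 1 library of polyadenylated RNA, and no genetic change or treatment is named for either. With 1 library a line there is no replicate error, so no test was made, and every difference below describes these libraries rather than the lines as such.

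PRC1 is a chromatin complex that helps to keep developmental genes silent. Its core is a RING ligase, RING1 or RNF2, which attaches ubiquitin to histone H2A when paired with a PCGF protein. In canonical PRC1 the PCGF partner is BMI1 or PCGF2, a CBX protein binds the methyl mark that Polycomb repressive complex 2 (PRC2) places on histone H3, and a PHC protein lets complexes polymerise. In variant PRC1 the CBX protein is replaced by RYBP or YAF2, and other PCGF proteins, PCGF6 among them, take the place of BMI1. In mouse embryonic stem cells Cbx7 is known as a main CBX protein of the pluripotent state, with Cbx2 and Cbx8 taking over during differentiation.

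Expression was given as FPKM, fragments per kilobase of transcript scaled to the number of mapped fragments, which scales for length and so lets genes be compared with one another. The members covered a wide range, and their order was the same in both lines for 9 of 9 genes. PHC1 was highest, followed by CBX2, RNF2, RING1, PCGF6, CBX7, CBX6, BMI1 and CBX8. PHC1 exceeded CBX8 by 155-fold in HuES53 and by 187-fold in HuES64. Among the 13790 genes that averaged 1 FPKM or more, PHC1 lay at percentile 96.4 of the levels in HuES53 and 94.3 in HuES64, RNF2 at 63.9 in both lines, and CBX8 at 3.65 and 1.39. Fragment numbers were estimated from the steps of low values, and exact 95% Poisson intervals were placed on them, which cover counting error only. By these intervals BMI1 and CBX8 could not be ordered in either line, and RING1 and PCGF6 could not be ordered in HuES53. The other neighbours in the order did not overlap. In such bulk samples fewer cells of a type and less RNA per cell cannot be told apart.

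**Figure D1:**
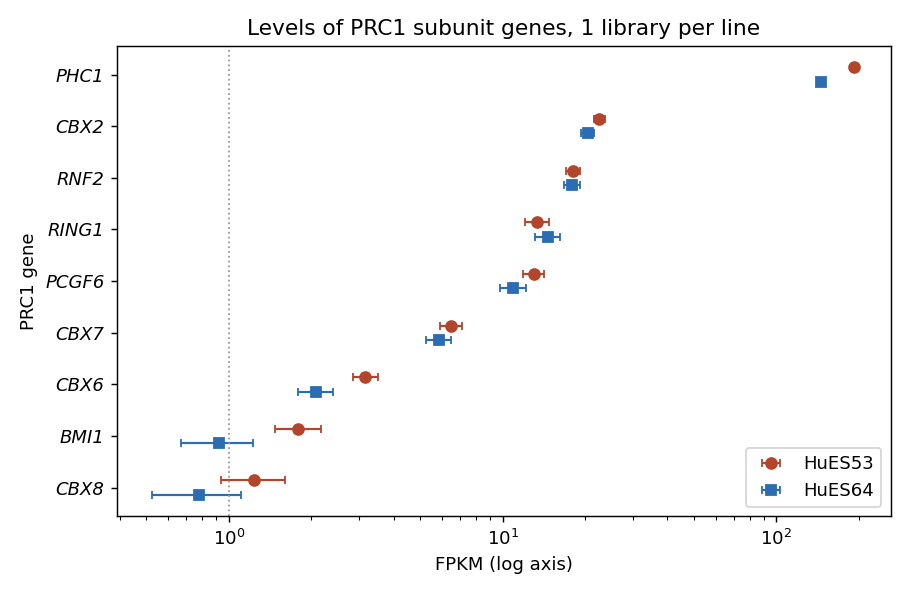
FPKM of the 9 PRC1 subunit genes on a log axis, in HuES53 (circles) and HuES64 (squares), 1 library each. Bars are 95% Poisson intervals on estimated fragment numbers (counting error only), and the dotted line marks 1 FPKM. PHC1 stood at 191 and 145 FPKM, while BMI1 and CBX8 lay near the dotted line.

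The ligases were expressed at like levels. RNF2, the main H2A ubiquitin ligase of mouse embryonic stem cells, is at chr1:185014551-185071740 in the table. It stood at 18.1 FPKM in HuES53 and 17.9 FPKM in HuES64, a log2 difference of 0.02 on the log2(FPKM + 1) scale. RING1, its paralog at chr6:33176286-33180499, stood at 13.4 FPKM in HuES53 and 14.6 FPKM in HuES64, a log2 difference of -0.12. RING1 was the only one of the 9 genes that was lower in HuES53 with the deposited values. RNF2 exceeded RING1 by 1.36-fold in HuES53 and 1.22-fold in HuES64. The sign of both differences depended on the processing: RING1 was higher in HuES53 with TPM scaling (0.11) and with the trend in GC content and transcript length removed (0.10), and RNF2 was lower there with that trend removed (-0.22) and with median-of-ratios scaling (-0.01). Their counting intervals overlapped between the lines, and RefSeq holds an RNF2 pseudogene, RNF2P1.

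PHC1, which encodes a polyhomeotic protein with a SAM domain that links PRC1 complexes, dominated the set. Its locus is chr12:9067316-9094063 in the table. It stood at 191 FPKM in HuES53 and 145 FPKM in HuES64, an FPKM ratio of 1.32 and a log2 difference of 0.39. Its level was 8.49 times that of CBX2, the next member, in HuES53 and 7.10 times in HuES64, and it exceeded the sum of the other 8 members, 79.7 FPKM in HuES53 and 73.5 FPKM in HuES64. Among the PHC genes it held 94.6% of the summed FPKM in HuES53 and 89.8% in HuES64. PHC2 held 4.41% in HuES53 and 9.44% in HuES64, and PHC3 held 0.967% and 0.737%. The counting intervals of PHC1 did not overlap between the lines. The PHC1 locus overlaps M6PR over 1107 bases in the table, and M6PR stood at 79.9 FPKM in HuES53 and 88.7 FPKM in HuES64. Reads of a PHC1 pseudogene in RefSeq, PHC1P1, cannot be told apart here either.

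RefSeq gives PHC1 a pair of start sites with unlike sequence before them. They are shown because PHC1 stands so far above the other members, with each CG dinucleotide in capitals, 5′ to 3′ on the plus strand and in GRCh38.p14, a build whose coordinates were not converted to or from those of the deposited table. The windows are chr12:8913593-8913842 and chr12:8914259-8914508.
PHC1 upstream start: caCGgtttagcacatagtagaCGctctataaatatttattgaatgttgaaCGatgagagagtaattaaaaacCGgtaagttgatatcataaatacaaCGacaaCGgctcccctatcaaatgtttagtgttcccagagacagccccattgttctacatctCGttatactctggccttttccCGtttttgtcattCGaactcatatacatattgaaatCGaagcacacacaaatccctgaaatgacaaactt
PHC1 downstream start: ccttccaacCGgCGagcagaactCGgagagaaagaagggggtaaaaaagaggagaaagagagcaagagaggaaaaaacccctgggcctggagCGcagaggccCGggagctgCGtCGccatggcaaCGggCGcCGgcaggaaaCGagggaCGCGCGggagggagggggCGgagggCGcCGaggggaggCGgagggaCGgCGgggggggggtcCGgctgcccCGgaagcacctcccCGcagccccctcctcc
The window of the upstream start holds 10 CG and that of the downstream start 23, against a median of 11 over 35116 RefSeq windows of the same 250 bases. The table gives 1 value per gene, so the level of each start is not known.

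Among the 4 CBX members, CBX2 was highest. CBX2, whose protein compacts chromatin besides reading the methyl mark, stood at 22.5 FPKM in HuES53 and 20.4 FPKM in HuES64, a log2 difference of 0.13. CBX7 stood at 6.50 FPKM in HuES53 and 5.84 FPKM in HuES64, also a log2 difference of 0.13. CBX2 thus exceeded CBX7 by 3.46-fold in HuES53 and 3.50-fold in HuES64. The level of mRNA is what was measured, and protein levels were not analysed here.

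CBX6 and CBX8 were low and higher in HuES53. CBX6, a further chromobox paralog at chr22:39260243-39268258, stood at 3.15 FPKM in HuES53 and 2.08 FPKM in HuES64, a log2 difference of 0.43 and a plain FPKM ratio of 1.52. CBX8 stood at 1.23 FPKM in HuES53 and 0.777 FPKM in HuES64, a log2 difference of 0.33 and a ratio of 1.59. The counting intervals of CBX6 were 2.83 to 3.51 FPKM in HuES53 and 1.79 to 2.40 FPKM in HuES64 and did not overlap. Those of CBX8, 0.939 to 1.599 FPKM in HuES53 and 0.525 to 1.11 FPKM in HuES64, did, with about 58 fragments in HuES53 and 30 in HuES64.

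The 4 CBX members summed to 33.4 FPKM in HuES53 and 29.1 FPKM in HuES64. CBX2 held 67.4% of that sum in HuES53 and 70.2% in HuES64, and CBX7 held 19.5% and 20.04%. CBX6 (9.44% and 7.12%) and CBX8 (3.69% and 2.67%) made up the rest in HuES53 and HuES64. These genes lie in pairs. In the table CBX2 is at chr17:77751977-77761449 and CBX8 begins 6726 bases further on, at chr17:77768176-77770915. CBX7 is at chr22:39526777-39548538, 258518 bases beyond CBX6. Close position did not go with like level: CBX2 exceeded its neighbour CBX8 by 18.3-fold in HuES53 and 26.3-fold in HuES64.

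**Figure D2:**
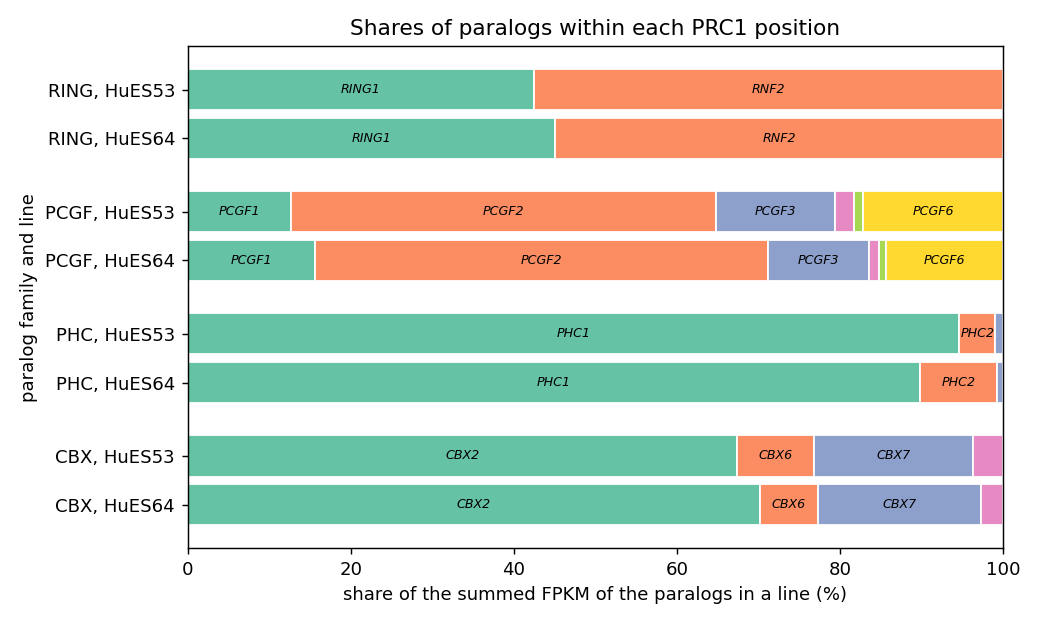
Share of each paralog in the summed FPKM of its family (%), with HuES53 above HuES64 for the RING, PCGF and PHC genes and the 4 CBX members. Unlabelled segments are under 4%: BMI1 and PCGF5 among the PCGF genes, PHC3 among the PHC genes and CBX8 among the CBX members. RNF2 held 57.6% and 55.0% of its family, and PHC1 held 94.6% and 89.8% of its own.

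BMI1 was low in both lines, and with the deposited rows and a pseudocount of 1 FPKM its difference was the largest of the 9. That rank passed to CBX8 with the GC and length trend removed by the median transcript (0.60, against 0.29 for BMI1), and to CBX6 with it removed by the longest coding transcript (0.43, against 0.26) or with the read-through row described next added to BMI1 (0.43, against 0.27). BMI1, known as a repressor of cell cycle inhibitor genes, stood at 1.79 FPKM in HuES53 and 0.920 FPKM in HuES64, a log2 difference of 0.54. The plain FPKM ratio was 1.95, since the pseudocount of 1 FPKM shrinks the difference of low genes. Counting intervals of 1.47 to 2.17 FPKM in HuES53 and 0.670 to 1.23 FPKM in HuES64 did not overlap, at about 107 and 45 fragments. These intervals rest on upper estimates of the fragment numbers and do not cover the sharing of fragments with the read-through gene.

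The BMI1 value depends on how fragments were shared with a read-through gene. BMI1, at chr10:22610139-22620414, lies whole within the locus of COMMD3-BMI1, whose transcripts join BMI1 to its neighbour COMMD3. COMMD3-BMI1 stood at 2.83 FPKM in HuES53 and 2.73 FPKM in HuES64, above BMI1 itself. Added together the rows gave 4.62 FPKM in HuES53 and 3.65 FPKM in HuES64, and the log2 difference was then 0.27. COMMD3 alone was lower in HuES53, at 6.73 FPKM against 8.02 FPKM in HuES64. How Cufflinks or another tool split the shared fragments is not given in the sources used here, and reads of a BMI1 pseudogene (BMI1P1) cannot be told apart.

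PCGF6, the PCGF protein of a variant complex with MGA, MAX and L3MBTL2, was an intermediate member, at chr10:105062553-105110891. It stood at 13.0 FPKM in HuES53 and 10.9 FPKM in HuES64, a log2 difference of 0.23, which became -0.04 after the GC and length trend was taken out by the median transcript and 0.12 by the longest coding one. Its counting intervals, 11.9 to 14.2 FPKM in HuES53 and 9.76 to 12.1 FPKM in HuES64, overlapped. PCGF6 exceeded BMI1 by 7.27-fold in HuES53 and 11.9-fold in HuES64. These are high estimates, since the read-through row is left out. With it BMI1 stood at 4.62 FPKM in HuES53 and 3.65 FPKM in HuES64.

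Of the 6 PCGF genes, PCGF2 rather than BMI1 carried most of the canonical level. PCGF2, the paralog closest to BMI1, stood at 39.3 FPKM in HuES53 and 42.2 FPKM in HuES64, 21.97 and 45.9 times BMI1. It held 52.1% of the PCGF sum in HuES53 and 55.5% in HuES64, PCGF6 held 17.2% and 14.3%, and BMI1 held 2.37% and 1.21%. With the read-through row left out, as here, the share of BMI1 is a low estimate and the ratios of PCGF2 to BMI1 are high estimates. PCGF1 and PCGF3 stood at 9.59 and 11.0 FPKM in HuES53, and at 11.9 and 9.40 FPKM in HuES64, and PCGF5 was under 1 FPKM in both lines. PCGF2 overlaps CISD3 in the table.

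The sequence before the upstream BMI1 start in RefSeq is shown because BMI1 had the largest difference with the deposited rows, though not with the read-through row added or the trend removed. It is chr10:22320849-22321098 of GRCh38.p14, plus strand, 5′ to 3′, with CG in capitals.
BMI1 upstream start: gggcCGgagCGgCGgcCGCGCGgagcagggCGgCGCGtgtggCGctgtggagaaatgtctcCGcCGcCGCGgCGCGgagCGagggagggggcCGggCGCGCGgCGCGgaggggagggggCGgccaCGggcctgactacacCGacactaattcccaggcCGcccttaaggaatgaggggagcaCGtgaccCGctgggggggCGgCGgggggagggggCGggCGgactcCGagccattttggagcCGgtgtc
It holds 35 CG, more than 94.2% of RefSeq windows. The window of the downstream BMI1 start in RefSeq, not printed here, holds 54 CG. Of the 9 members, 7 had promoter windows in the table used, 9 windows in all. The sequence CACGTG, an E-box that reads the same on both strands, was found in 2 of the 9, those of BMI1 (the window above) and CBX6, and in 6.34% of all 35116 windows. The cyclic AMP response element TGACGTCA and, on either strand, the octamer ATGCAAAT were in none of the 9, and in 1.65% and 1.63% of all windows. A match is a description of letters and not a binding site.

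Of the 9 genes, 8 were higher in HuES53, where 52.5% of the 13790 genes that averaged 1 FPKM or more were higher by any amount. The median difference of the members was 0.23, against 0.03 over all these genes, whose standard deviation was 0.56. Above that median of all genes lay 7 of the 9, with RNF2 (0.02) and RING1 below it. The members ranged from -0.12 for RING1 to 0.54 for BMI1, and lay between percentile 36.1 and percentile 88.7 of all differences. None of the 9 reached 1.5-fold on the log2(FPKM + 1) scale, a size that 9.22% of all genes passed with the higher value in HuES53 and 7.84% in HuES64. All 9 averaged 1 FPKM or more, but BMI1 and CBX8 were under 1 FPKM in HuES64 and came in through their level in HuES53. Among the 6 members averaging 5 FPKM or more, 5 were higher in HuES53, with a median of 0.13. Of all 9661 genes at that level, 49.3% were higher in HuES53, with a median of -0.008.

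**Figure D3:**
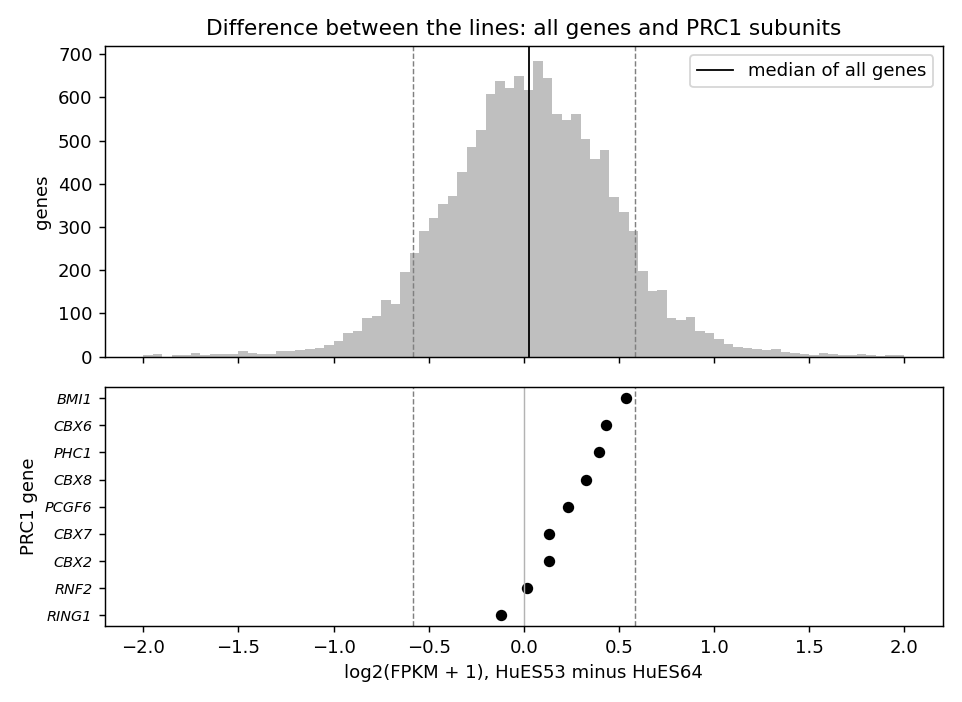
Upper panel: number of genes by log2(FPKM + 1) in HuES53 minus HuES64, for the 13790 genes averaging 1 FPKM or more (106 lie beyond the axis). Lower panel: the 9 PRC1 subunit genes on the same axis, with dashed lines at 1.5-fold. The members lay between -0.12 and 0.54, inside both dashed lines.

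The lean was also followed under other scalings and with the trend in base composition removed. Dividing by the FPKM sum of each line (TPM) moved the median of all genes to 0.25 and that of the members to 0.47, so the members stayed 0.22 above all genes, against 0.21 before. The difference fell with GC content across genes (Spearman's rho -0.49 over 11916 genes with a reference transcript, genes not being independent replicates). With the trend in GC content and length removed, the members' median was 0.34 by the median transcript of each gene and 0.22 by the longest coding transcript, against 0 for all genes. CBX2, CBX6, CBX7, CBX8, BMI1 and PHC1 were higher in HuES53 under every scaling, pseudocount and trend removal run. All these runs use the same libraries and are not replicates. The counting intervals of CBX2, CBX7 and CBX8 overlapped between the lines.

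**Figure D4:**
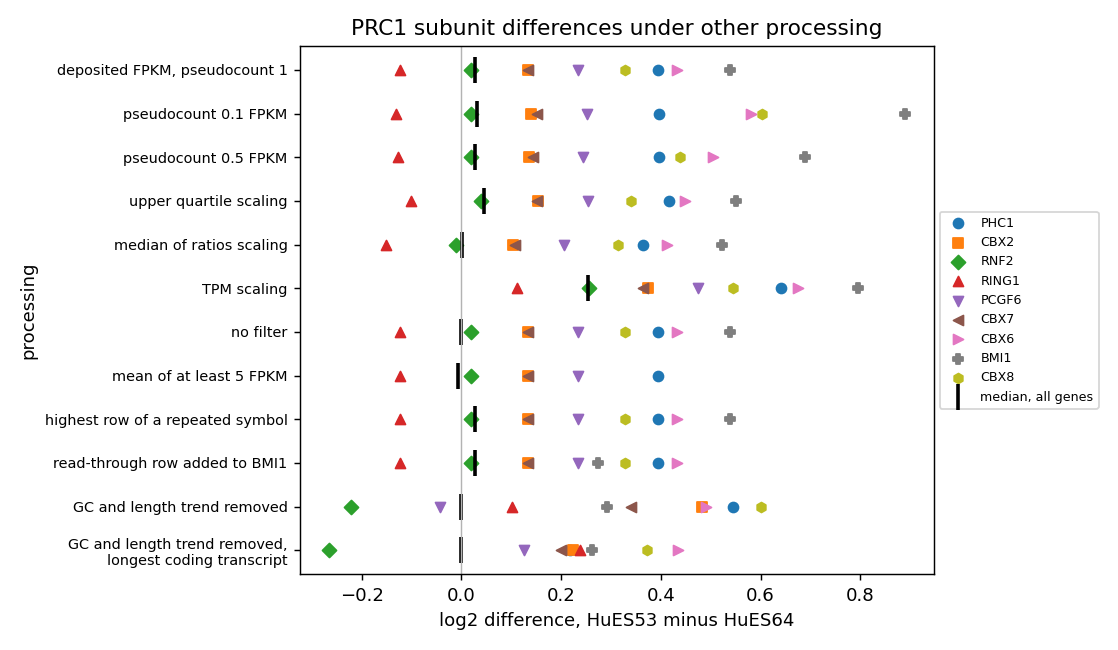
Log2 difference, HuES53 minus HuES64, of each PRC1 subunit gene under each processing, with the median of all genes as a black bar. RING1, RNF2 and PCGF6 cross 0 under some of them, and BMI1 spreads most, from 0.26 to 0.89.

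Other genes of canonical PRC1 did not share one direction. Of 5 listed, 2 were higher in HuES53, where 52.5% of all genes were higher, and 3 in HuES64. Their median was -0.03, or 0.05 with the GC and length trend removed by the median transcript. The difference of PCGF2 went from -0.10 to 0.05 with that removal, and to 0.14 with TPM scaling. Of the 5, PHC2 was the only one at least 1.5-fold different, where 17.1% of all genes were. It stood at 8.92 FPKM in HuES53 and 15.3 FPKM in HuES64 (log2 difference -0.71). It was under 1.5-fold with TPM scaling (-0.50) and with the trend removed by the median transcript (-0.43), and past it with the trend removed by the longest coding transcript (-0.62). PHC1 exceeded PHC2 by 21.4-fold in HuES53 and 9.51-fold in HuES64. SCML2, a sex comb protein that binds PRC1, stood at 8.96 FPKM in HuES53 and 6.34 FPKM in HuES64.

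Of 24 listed partners of variant PRC1, 22 averaged 1 FPKM or more, 16 of them higher in HuES53 and 6 higher in HuES64, with a median of 0.15. None reached 1.5-fold in either direction, a size that 17.1% of all genes reached, and 52.5% of all genes were higher in HuES53. The highest were CSNK2B, a casein kinase subunit (155 FPKM in HuES53 and 211 in HuES64), SKP1 of the BCOR complex (162 and 164 FPKM) and the histone deacetylase HDAC1 (123 and 113 FPKM). CSNK2B overlaps GPANK1 in the table.

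Among genes that act against the PRC1 ubiquitin mark on histone H2A, MYSM1 and ASXL2 were over 2-fold higher in HuES53. Of 6 listed, 5 averaged 1 FPKM or more, and 4 of these were higher in HuES53, where 52.5% of all genes were higher. The median of the 5 was 0.48, or 0.17 with the GC and length trend removed. MYSM1, an H2A deubiquitinase, stood at 21.2 FPKM in HuES53 and 9.40 FPKM in HuES64, a log2 difference of 1.10. ASXL2, a partner of the deubiquitinase BAP1, stood at 4.83 FPKM in HuES53 and 1.55 FPKM in HuES64, a log2 difference of 1.19. Only 2.15% of all genes were at least 2-fold higher in HuES53. After removal of the GC and length trend they were 0.73 for MYSM1 and 0.79 for ASXL2, under 2-fold. BAP1 itself (28.8 FPKM in HuES53 and 29.7 in HuES64) and USP16 (10.8 and 7.41 FPKM) differed by less than 1.5-fold. The difference of USP16, 0.48, was 0.06 with the trend removed by the median transcript and 0.26 by the longest coding one.

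PRC2, which writes the mark that CBX proteins read, had 8 of 11 genes higher in HuES53, where 52.5% of all genes were higher, and a median of 0.13, or -0.04 after removal of the GC and length trend. RBBP7 (96.8 FPKM in HuES53 and 91.9 in HuES64) and RBBP4 (31.4 and 28.6 FPKM), histone-binding subunits, differed by less than 1.5-fold. RBBP4 overlaps SYNC in the table. JARID2, a PRC2 cofactor, stood at 99.5 FPKM in HuES53 and 63.8 FPKM in HuES64 (log2 difference 0.63, or 0.40 with the trend removed). It was the only one of the 11 at 1.5-fold, a size that 17.1% of all genes reached.

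**Figure D5:**
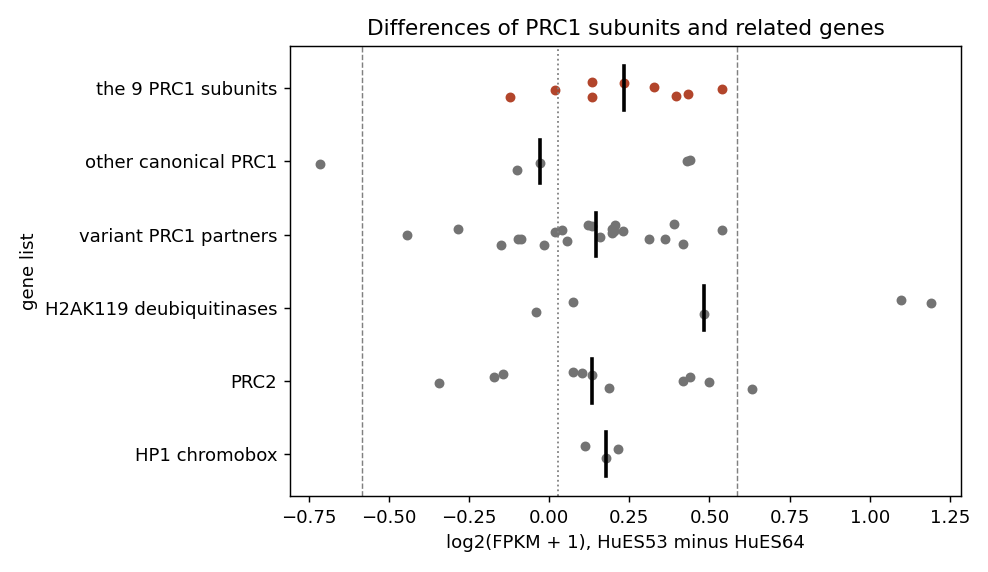
Log2(FPKM + 1) in HuES53 minus HuES64 for the 9 PRC1 subunit genes and 5 lists of related genes, each point a gene averaging 1 FPKM or more and each black bar a median. Dashed lines mark 1.5-fold, and the dotted line is the median of all genes, 0.03. MYSM1 and ASXL2 lie farthest to the right, and PHC2 farthest to the left.

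The genes nearest in level to PHC1 and BMI1, by Euclidean distance of log2(FPKM + 1) over both lines, were taken from the 13790 genes. For PHC1 they were HSPA4 (194 FPKM in HuES53 and 145 in HuES64), ITGB1 (199 and 144 FPKM) and SEPT2 (190 and 152 FPKM), at distances of 0.021, 0.056 and 0.063. For BMI1 they were CNGA1 (1.82 FPKM in HuES53 and 0.908 in HuES64), PPP1R13B (1.83 and 0.942 FPKM) and PLEKHM3 (1.74 and 0.926 FPKM), at 0.016, 0.028 and 0.028. Over 2 libraries this is a likeness of level and difference only.

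The libraries carried the markers of undifferentiated stem cells, 8 of 8 at 24.9 FPKM or more in both lines. The highest, POU5F1, had 1053 FPKM in HuES53 against 1381 FPKM in HuES64, a log2 difference of -0.39. The 8 were split: 5 were higher in HuES53, where 52.5% of all genes were higher, and 3 in HuES64. Their median difference was 0.30, or 0.04 with the GC and length trend removed by the median transcript. Only SALL4 passed 1.5-fold, with 42.1 FPKM in HuES53 against 24.9 FPKM in HuES64 (log2 difference 0.73). Of all genes, 17.1% reached that size. Neural markers were near 0, the highest being PAX6 at 1.19 FPKM in HuES53 and 0.720 in HuES64. Endoderm markers summed over 4 genes to 40.1 FPKM in HuES53 and 34.1 in HuES64, and mesoderm markers over 4 genes to 15.1 and 7.50 FPKM. The 4 trophoblast markers summed to 3.36 FPKM in HuES53 and 0.228 in HuES64, of which CGA gave 2.90 FPKM in HuES53 while listed at 0 in HuES64. GCM1 was listed at 0 in both lines. The 4 germ cell markers summed to 2.69 and 4.41 FPKM. Fibroblast and mesenchyme markers summed over 7 genes to 453 FPKM in HuES53 and 454 in HuES64. THY1, also a stem cell surface protein, held the largest part. COL1A1 (138 FPKM in HuES53 and 168 in HuES64) and COL1A2 (66.5 and 46.7 FPKM) came next. The like sums hide opposite differences. Of the 5 averaging 1 FPKM or more, 2 were higher in HuES53 (52.5% of all genes) and 3 in HuES64. COL3A1, at 3.08 FPKM in HuES53 and 8.00 in HuES64, differed most. The part of these cells in the PRC1 values was not tested.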

How the data were processed

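RNA sequencing of 2 lines, 1 library each, was deposited by the authors as 1 table of FPKM values with 25593 rows. TopHat2 2.0.4 and Cufflinks 2.0.2 are listed, with no role, in the submitters' processing notes. The strand setting, annotation, genome build and read filters were not given in the sources used here. Loci count from 0 (1259 of 1298 microRNA loci had their RefSeq length on that reading) and appear here counted from 1, in the table's own build.

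From the table, 136 rows on chromosome Y were left out and rows sharing a symbol (21 symbols) were summed. Differences are on the log2(FPKM + 1) scale, HuES53 minus HuES64, for genes averaging 1 FPKM or more. No test was possible. Sizes of 1.5-fold and 2-fold stand in for calls. Chosen with earlier results of these data known were the members, the lists and the naming rule. That rule takes all 9 members and, from each list of Polycomb-related genes, the 3 highest genes and any gene at least 1.5-fold different. Cell type marker lists are outside it and given as sums, with some of their genes named. Paralogs and overlapping genes were named outside it, and 1 related gene is not reported here.

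Depth came from low values of olfactory receptor genes with loci under 1100 bases. For an assumed fragment length of 200 bases, HuES53 had 17 of 20 values, and HuES64 9 of 12, within 3% of a whole number, at 18.45 and 15.2 fragments per FPKM and kb. The step was fitted to the same values, and the fragment numbers use the longest coding transcript or the locus, whichever is shorter, so they are upper estimates. GC content and length came from GENCODE 29 transcripts, matched by symbol for 86.4% of the genes. Medians over 20 bins of each were subtracted in 5 rounds, a step checked on simulated data with a GC trend only. That check held no trend in length and did not cover the choice of transcript. Promoter windows are the 250 bases before each RefSeq start. Alternatives were pseudocounts of 0.1 and 0.5 FPKM, 3 scalings, no filter or a mean of 5 FPKM, the highest row of a repeated symbol, BMI1 with its read-through row, and the GC and length trend removed. Python 3.11.15, pandas 2.3.3, numpy 2.4.6 and scipy 1.17.1 were used.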

Additional observations from a re-analysis of the deposited data

How the results depend on the processing

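The median difference of the 9 members was positive under every alternative run. It moved by more than 0.1 to 0.47 with TPM scaling, which raised the median of all genes to 0.25, to 0.13 over the 6 members averaging 5 FPKM or more, and to 0.34 with the GC and length trend removed. With the longest coding transcript, an alternative chosen after seeing the data, it was 0.22. No member was 1.5-fold different on the log2(FPKM + 1) scale, where 17.1% of all genes were, although the plain FPKM ratios of BMI1 (1.95), CBX8 (1.59) and CBX6 (1.52) exceed that size. The count was 2 with a pseudocount of 0.1 FPKM (BMI1 and CBX8), 1 with 0.5 FPKM (BMI1), 3 with TPM scaling (BMI1, CBX6 and PHC1) and 1 with the trend removed (CBX8). Of all genes, 23.6% reached that size with a pseudocount of 0.1 FPKM, 20.4% with 0.5 FPKM, 26.9% with TPM scaling and 11.2% with the trend removed. No paired analysis was possible because each line has 1 library and the labels give no replicate numbers, and for the same reason no library could be left out. Depth limits the low members most, CBX8 resting on about 58 fragments in HuES53 and 30 in HuES64.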

Other observations

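Genes that Polycomb complexes are known to keep silent in stem cells were mostly low in both lines. Of 16 developmental regulators, 12 were under 1 FPKM in both, and NEUROG1 and NKX6-1 were listed at 0 in both. GATA4 (11.5 FPKM in HuES53 and 7.77 in HuES64) and GATA6 (9.81 and 6.52 FPKM), factors of endoderm and heart, were the highest, followed by HAND1 (1.39 and 2.21 FPKM). Of 8 germline genes, several known in mouse as targets of the PCGF6 complex, 5 were under 1 FPKM in both lines. Low values were common among all genes too: 13790 of 25436 symbols averaged 1 FPKM or more. By that measure 3 of the 16 developmental regulators and 3 of the 8 germline genes did. The RNA-binding protein gene DAZL had 1.89 FPKM in HuES53 and 3.86 in HuES64 (log2 difference -0.75), TDRKH at 12.1 and 11.1 FPKM, and the meiotic cohesin gene STAG3, which overlaps another gene in the table, at 2.64 and 1.56 FPKM.

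The HP1 genes, whose chromobox proteins read a different methyl mark on histone H3, stood above the PRC1 CBX genes. CBX3 had 170 FPKM in HuES53 and 150 in HuES64, CBX1 at 165 and 142 FPKM, and CBX5 at 28.4 and 26.1 FPKM. All 3 differed by less than 1.5-fold, a size that 17.1% of all genes reached.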
